A study of Mus musculus with 15 samples.

Results

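The genes described here are 38 interferon-stimulated genes of the mouse, taken from a list of names and looked up among the 26145 genes counted in single cells of the prefrontal cortex (PFC). Of the 38, 37 were listed under the same symbol, and Ifi27 was listed under the older symbol Ifi27l1. Droplet single-cell RNA-seq was performed on 15 libraries, in which each transcript was counted once through its unique molecular identifier (UMI). All mice were male C57BL/6N. The 12 libraries of postnatal day 60 (P60) mice, labelled 8 to 10 weeks old, each pooled 2 mice that had pressed a lever for intravenous cocaine or saline. They were taken during the maintenance phase of self-administration or after 48 h or 15 days of withdrawal, with 2 libraries per drug and time point. The paper places the catheter surgery at P60, so tissue was taken at an older age. Mice of later time points would be older still, and P60 is used here as the name of the set. The 3 libraries of postnatal day 21 (P21) mice, labelled 3 weeks old, carried no treatment label, and the methods give 4 mice for them and pools of 2 mice per replicate, which would fill 2 libraries, so that the 3 may share mice. The tissue field of the labels read NAc for every library, whereas titles and source names read PFC. The 35360 cells that the authors retained (24822 from P60 and 10538 from P21) carried the authors' names for 8 cell types and, at P60, 98 subclusters.

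Interferons are secreted proteins by which cells warn each other of infection. Type I interferons bind the receptor of Ifnar1 and Ifnar2 and activate a complex that holds Stat2 and Irf9 and binds the interferon-stimulated response element (ISRE) in promoters. Interferon gamma binds Ifngr1 and Ifngr2 and acts through the gamma-activated site (GAS). Many of the induced genes are also transcribed at a low level without infection, and endothelial cells, which line blood vessels, and microglia, the resident macrophages of the brain, are well-known responders in this tissue.

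The promoters are shown because many of these genes share ISRE letters there, a feature that expression did not enter. RefSeq promoters on GRCm38.p6 (250 bases before to 50 after the start site) were matched for 31 of the 38 genes. The ISRE was searched as GAAANNGAAA and the GAS as TTCNNNGAA, both on either strand. ISRE letters were found in 17 of 31 promoters (54.8%), against 3.99% of all 27025 genes with a promoter. Matches at 2 or more positions were found in 8 of 31 (25.8%), against 0.266% of all genes, and in 5 genes (Isg15, Oas1a, Bst2, Gbp3 and Irgm1) such matches overlapped each other. GAS letters occurred in 11 of 31 (35.5%), against 9.55% of all genes, and overlapped an ISRE match in Bst2 and Ifitm3. A match describes letters in this window only. The 250 bases before the start site of 6 genes are given 5′ to 3′ on the strand of the gene, with ISRE matches in capitals. Isg15, Ifit1 and Ifit3 are core genes with matches at several positions, Bst2 and Igtp carry both ISRE and GAS letters, which overlap in Bst2, and Xaf1 held no ISRE match.
Isg15 (chr4:156200819-156201068, minus strand): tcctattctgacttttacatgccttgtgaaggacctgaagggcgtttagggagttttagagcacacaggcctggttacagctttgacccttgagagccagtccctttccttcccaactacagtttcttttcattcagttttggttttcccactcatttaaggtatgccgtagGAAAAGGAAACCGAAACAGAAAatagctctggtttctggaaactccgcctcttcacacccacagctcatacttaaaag
Ifit1 (chr19:34640639-34640888, plus strand): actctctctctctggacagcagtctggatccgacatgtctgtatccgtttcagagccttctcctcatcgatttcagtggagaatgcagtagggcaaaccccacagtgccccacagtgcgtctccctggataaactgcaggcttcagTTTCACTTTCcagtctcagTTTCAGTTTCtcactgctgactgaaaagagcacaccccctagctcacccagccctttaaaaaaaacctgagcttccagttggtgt
Ifit3 (chr19:34583279-34583528, plus strand): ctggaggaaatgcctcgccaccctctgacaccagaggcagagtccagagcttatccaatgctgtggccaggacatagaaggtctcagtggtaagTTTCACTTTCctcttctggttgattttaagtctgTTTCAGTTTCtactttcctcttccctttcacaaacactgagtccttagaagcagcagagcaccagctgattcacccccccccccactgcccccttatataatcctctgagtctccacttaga
Bst2 (chr8:71537473-71537722, minus strand): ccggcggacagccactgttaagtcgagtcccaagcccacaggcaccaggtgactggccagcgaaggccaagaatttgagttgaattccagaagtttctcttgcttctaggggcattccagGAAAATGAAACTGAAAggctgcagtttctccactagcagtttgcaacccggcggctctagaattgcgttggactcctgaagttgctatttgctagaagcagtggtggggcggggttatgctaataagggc
Igtp (chr11:58199306-58199555, plus strand): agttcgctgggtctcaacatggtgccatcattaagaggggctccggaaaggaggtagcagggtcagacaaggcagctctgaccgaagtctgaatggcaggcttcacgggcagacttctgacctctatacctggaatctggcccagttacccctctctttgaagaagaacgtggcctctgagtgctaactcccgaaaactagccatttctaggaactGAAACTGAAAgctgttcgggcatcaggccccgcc
Xaf1 (chr11:72301379-72301628, plus strand): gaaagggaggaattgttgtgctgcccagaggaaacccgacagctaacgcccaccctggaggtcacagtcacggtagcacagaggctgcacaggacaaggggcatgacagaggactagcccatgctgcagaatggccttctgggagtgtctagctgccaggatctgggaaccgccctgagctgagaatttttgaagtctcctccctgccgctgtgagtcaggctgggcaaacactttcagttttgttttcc
In Isg15 the 3 overlapping matches began 78, 72 and 66 bases before the start site. The matches of Ifit1 began 104 and 85 bases before it, and those of Ifit3 156 and 122 bases before it. In Bst2 they began at 130 and 124, in Igtp the single match began at 34, and GAS letters in these genes began at 136 and 45.

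Interferon-stimulated genes were mostly highest in endothelial cells at P60. Levels are given as UMIs per 1000000 UMIs of a cell type in a library (CPM), without mitochondrial and ribosomal protein genes and not divided by gene length, so that a gene is compared between cell types, and naming the genes with the most UMIs in a cell type does not rank their expression. Of 37 genes with any UMI, 30 had their highest mean in endothelial cells, against 16.9% of all 20577 genes with a UMI. For 17 of the 37 no library of the next highest type reached the lowest endothelial library, against 3.99% of all genes. Among genes at 10 CPM or more in their highest type the counts were 30 and 17 of 36, against 19.1% and 6.57%. Microglia were highest for 4 genes (Irf1, Mx1, Psmb8 and Lgals3bp), newly formed oligodendrocytes for Ifi27 and Mx2, and oligodendrocyte precursors for Ifit2. These levels are a description of the authors' cell classes and were not tested. Psmb9, a catalytic subunit of the immunoproteasome, was listed under 2 overlapping gene identifiers and had 0 UMIs in every library. The overlap leaves its count uncertain, so the 0 is not read as absence.

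Summed over the list, the level was 8872 ± 855 CPM in endothelial cells (SD, n = 12 P60 libraries, range 7715–10342) and 3558 ± 625 CPM in microglia (n = 12). It was 1297 ± 283 CPM in oligodendrocyte precursors and 1167 ± 209 CPM in newly formed oligodendrocytes (n = 11 each). Astrocytes summed to 737 ± 40.0 CPM (n = 11), inhibitory neurons to 528 ± 103 CPM, excitatory neurons to 525 ± 60.3 CPM and mature oligodendrocytes to 397 ± 55.9 CPM (n = 12 each). The endothelial libraries all lay above every library of the other types, whereas the sums of the 2 neuronal types could not be separated by their spread. Genes at 10 CPM or more numbered 35 in endothelial cells, 26 in microglia, 16 in oligodendrocyte precursors, 14 in astrocytes, 9 in newly formed oligodendrocytes, 5 each in inhibitory neurons and mature oligodendrocytes, and 3 in excitatory neurons.

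**Figure D1:**
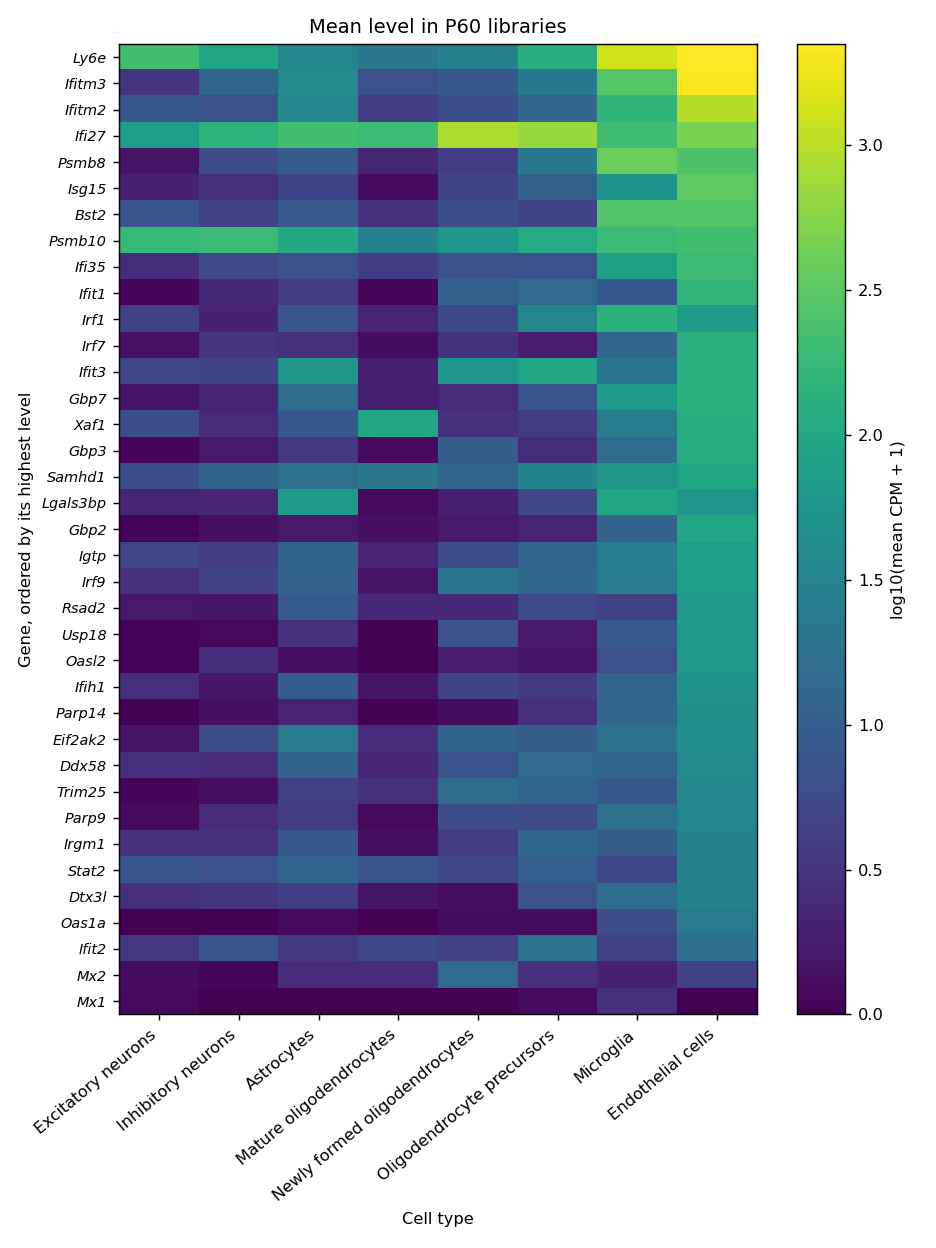
Mean level of each gene (rows) in each cell type (columns) over the P60 libraries, as colour on a log10(CPM + 1) scale, with genes ordered by their highest level. The endothelial column is the brightest for 30 of 37 genes, Ifi27 and Psmb10 are seen in every column, and Xaf1 stands out in mature oligodendrocytes.

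Membrane proteins that restrict viral entry were among the genes with the most endothelial UMIs. Ly6e, a GPI-anchored surface protein, reached 2238 ± 234 CPM (SD, n = 12 P60 libraries), Ifitm3 2076 ± 438 CPM and Ifitm2 970 ± 354 CPM. For both Ifitm genes the highest endothelial value, 3126 CPM for Ifitm3 and 2019 CPM for Ifitm2, came from library 8, which was the second library of cocaine at 48 h. In microglia the genes with the most UMIs were Ly6e (1310 ± 211 CPM), Psmb8, the inducible proteasome subunit that trims peptides for antigen presentation (395 ± 63.8 CPM), and Ifitm3 (286 ± 184 CPM). Bst2, or tetherin, which holds budding virions at the cell surface, stood at 263 ± 40.8 CPM in microglia and 272 ± 51.9 CPM in endothelial cells, a difference within the spread of the libraries.

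The 8 core genes, taken as those most closely tied to type I interferon, were highest in endothelial cells except for Ifit2. Isg15, a ubiquitin-like protein that is coupled to other proteins, stood at 331 ± 50.5 CPM there (249–429 CPM over 12 libraries), 316 times its mean in excitatory neurons. The RNA-binding Ifit1 stood at 166 ± 45.4 CPM and Ifit3 at 132 ± 25.7 CPM. Irf7, the transcription factor that amplifies type I interferon, reached 132 ± 23.3 CPM, Rsad2 (viperin), which blocks viral replication, 70.8 ± 20.3 CPM, Usp18, the protease that removes Isg15 and restrains the receptor, 64.0 ± 15.6 CPM, and the oligoadenylate synthetase-like Oasl2 63.3 ± 11.8 CPM. Ifit2 was low throughout, at 15.5 ± 4.73 CPM in endothelial cells and slightly higher in precursors. Ifit3 was not particular to endothelium, since precursors held 92.7 ± 25.4 CPM, astrocytes 58.0 CPM and newly formed oligodendrocytes 56.5 ± 56.0 CPM, with libraries that overlapped the endothelial ones in precursors and in newly formed oligodendrocytes. The last 300 bases of its transcript matched 94.3% of those of I830012O16Rik, so that the counting could have split their reads.

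Summed, the core genes reached 974.5 ± 156 CPM in endothelial cells (710–1216 CPM) and 139 ± 39.9 CPM in precursors. Microglia held 110 ± 47.7 CPM, newly formed oligodendrocytes 84.1 ± 85.0 CPM and astrocytes 79.0 ± 23.6 CPM. Inhibitory neurons (18.7 ± 11.4 CPM), excitatory neurons (8.89 ± 1.53 CPM) and mature oligodendrocytes (7.36 ± 3.54 CPM) had the least. Endothelial cells were 14.4% of the P60 cells captured and held 82.0% of their core UMIs. Over the whole list they held 50.8% of UMIs and excitatory neurons, which were 58.2% of cells, held 38.04%. At P21 they were 19.3% of cells and held 85.2% of core UMIs and 58.6% of the UMIs of the whole list.

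Several genes had a different distribution. Psmb10, the third inducible proteasome subunit, was nearly level between endothelial cells (215 ± 31.6 CPM), inhibitory neurons (193 ± 21.3 CPM) and excitatory neurons (175 ± 9.76 CPM), and excitatory neurons also held Ly6e (213 ± 44.1 CPM) and Ifi27 (71.9 ± 14.8 CPM). In inhibitory neurons Ifi27 stood at 145 ± 28.8 CPM and Ly6e stood at 97.7 ± 34.2 CPM. In astrocytes the most UMIs came from Ifi27 (217 ± 22.5 CPM), Psmb10 (103 ± 21.1 CPM) and Lgals3bp, a secreted glycoprotein (65.2 ± 25.1 CPM). Along the oligodendrocyte lineage Ifi27 was 675 ± 138 CPM in precursors, 858 ± 212 CPM in newly formed and 194 ± 44.1 CPM in mature oligodendrocytes. Precursors also carried Ly6e at 131 ± 67.6 CPM and Psmb10 at 112 ± 35.9 CPM, and newly formed cells carried Psmb10 at 56.5 ± 17.9 CPM. Xaf1, an antagonist of the apoptosis inhibitor Xiap, stood at 91.9 ± 19.6 CPM in mature oligodendrocytes and 128 ± 24.5 CPM in endothelial cells. Psmb10 stood at 29.1 ± 10.0 CPM in mature oligodendrocytes.

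The nucleic acid sensors, signal carriers and effectors named below also had their highest mean in endothelial cells, Mx1 and Mx2 excepted. Among them the libraries of Stat2, Gbp7, Igtp, Irgm1 and Eif2ak2 overlapped those of the next type. Ifih1 (MDA5) and Ddx58 (RIG-I), which detect viral RNA, stood at 49.6 ± 11.7 and 38.6 ± 8.49 CPM in endothelial cells, and the RNA-activated kinase Eif2ak2 at 43.3 ± 9.06 CPM. The guanylate-binding proteins Gbp7, Gbp3 and Gbp2, GTPases that attack intracellular pathogens, ranged from 94.0 to 131 CPM, and the related Igtp and Irgm1 stood at 74.1 and 30.4 CPM. Stat2 and Irf9, which carry the type I signal to the nucleus, were at 29.8 ± 7.198 and 72.8 ± 13.2 CPM. Irf9 shares exons on the same strand with Rnf31, which leaves its count uncertain. Mx1 had 0 UMIs in endothelial cells of all 12 P60 libraries, and Mx2 stayed at 3.62 ± 1.81 CPM. The transcript ends of Mx1 and Mx2 were 93.3% identical over 210 bases, and those of Oas1a and Oas1g were identical over 299 bases, so counts within these pairs are uncertain. Ifitm2 shared 123 bases of its end with Gm5331 at 97.6% identity, and Irgm1 shared 140 with Arcn1 at 91.4% and 136 with Rnf168 at 91.2%.

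Within the endothelial class the core genes were present in each of the 13 subclusters. Their summed level ran from 615 CPM in Endo_12 to 1355 CPM in Endo_1, with Endo_7 at 1335 CPM. Endo_12 had the lowest core sum but the highest Ifitm3 (3727 CPM) and Ifitm2 (1870 CPM). Endo_13, at 659 CPM, took 35.3% of its UMIs from blood markers such as haemoglobin and stood at 1019 CPM when these were left out of the total. Among the 8 microglial subclusters, Microglia_8 had the highest core sum, 371 CPM against 30.4–155 CPM in the rest. It held 103 cells, of which 4 (3.88%) had UMIs of 2 or more core genes, against 6 of 128 (4.69%) in Microglia_1, and in the 4 libraries with enough of its cells the sum ranged from 24.6 to 528 CPM. Microglia_1 carried Ifitm3 at 1681 CPM and Ifitm2 at 1015 CPM together with perivascular macrophage markers at 851 CPM. Its Ifitm3 ranged from 0 to 5153 CPM over 8 libraries. The Xaf1 level was 47.7–135 CPM in the 13 mature oligodendrocyte subclusters and at most 14.7 CPM in the newly formed ones. Ifi27 ran the other way, with 376–1080 CPM in newly formed, 558–880 CPM in precursor and 150–265 CPM in mature subclusters.

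**Figure D2:**
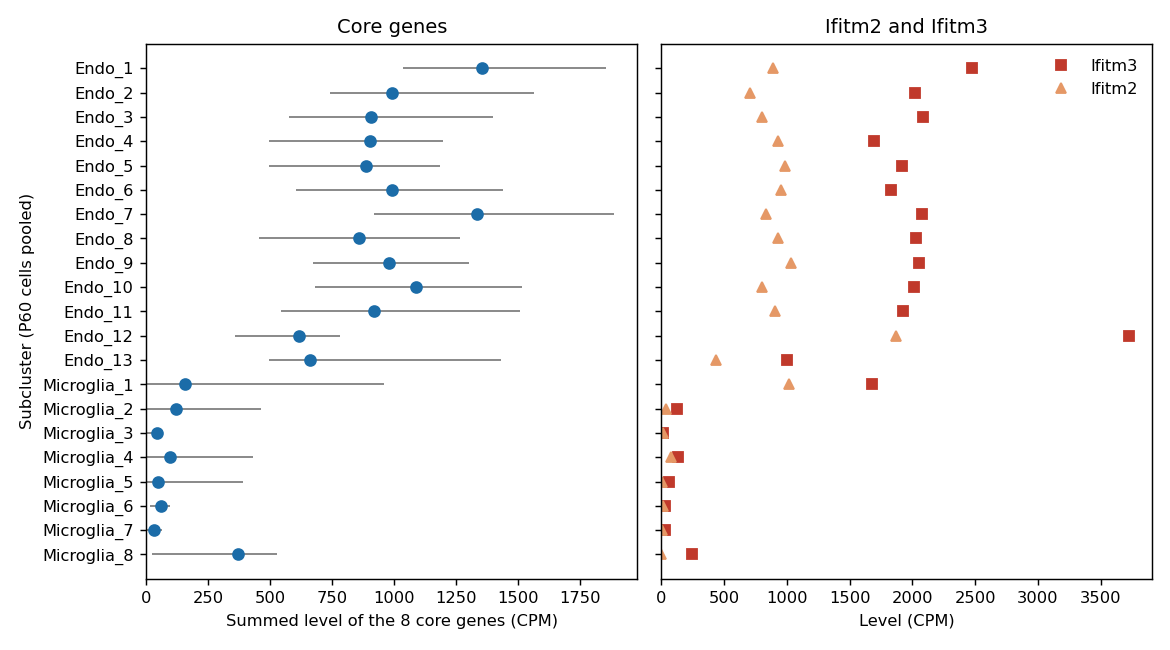
Endothelial and microglial subclusters of P60 cells, with the summed CPM of the 8 core genes on the left (points, P60 cells pooled; lines, lowest to highest library with at least 10 cells) and Ifitm3 and Ifitm2 on the right. The 13 endothelial subclusters lie between 615 and 1355 CPM for the core genes, Microglia_8 is the highest microglial one at 371 CPM, and Endo_12 and Microglia_1 lead their classes for the Ifitm genes.

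The endothelial signal was spread over many cells. After each cell was thinned to 1500 UMIs, UMIs of 2 or more core genes were found in 19.0–34.8% of endothelial cells per P60 library (median 28.2%, n = 12, median depth before thinning 4359 UMIs). In excitatory neurons, which served as the background of free RNA, the share was at most 0.0891%, and their median depth was 13616.5 UMIs. Thinning kept a smaller part of these deeper cells than of endothelial cells, so their thinned share need not equal the endothelial background. Without thinning the medians were 66.3% and 0.592%. In microglia the thinned share ranged from 0 to 5.56%. At P21 the endothelial shares were 23.6%, 4.89% and 7.15% in libraries 1, 2 and 3, whose median depths were 4805, 3501 and 3304 UMIs.

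P21 library 1 stood apart from P21 libraries 2 and 3 in these genes in endothelial cells and, for fewer genes, in excitatory neurons. Endothelial Isg15 was 441 CPM in library 1 and 33.2 and 30.01 CPM in the others, the fifth largest ratio among 10418 genes. Library 1 was the highest of the 3 for 33 of 35 listed genes tested in endothelial cells, against 42.1% of all genes. It was more than 2-fold above both others for 7 of 35 (Bst2, Ifit2, Ifit3, Irf7, Isg15, Oas1a and Rsad2), against 3.76% of all genes. Rsad2 was 90.6 CPM against 39.0 and 41.8 CPM, and Irf7 144 CPM against 57.9 and 63.3 CPM. Other genes were higher in it too, among them Ptgds (287 CPM against 7.98 and 2.03 CPM), the neutrophil gene S100a8 (18.5 CPM against 0 and 0 CPM) and the myelin gene Mag (23.3 CPM against 1.26 and 3.65 CPM). The genes more than 2-fold higher in it had a median GC content of 56.0%, against 50.2% of all genes and 51.4% of those 7. In excitatory neurons it was the highest for 15 of 24 genes, against 40.1% of all genes, and over 2-fold for 4 (Bst2, Isg15, Psmb8 and Rsad2), against 3.63%. In the other cell types the split could hardly be looked for, since few of the 7 genes named for endothelial cells passed the count filter. Isg15 was tested there in microglia only, with 11, 1 and 0 UMIs in P21 libraries 1, 2 and 3. Untested, it had 18, 0 and 0 UMIs in astrocytes and in newly formed oligodendrocytes. It had 4, 2 and 0 in inhibitory neurons and 2, 0 and 0 in mature oligodendrocytes, from unequal numbers of cells. Library 1 was the highest for 4 of 14 genes in microglia (31% of all genes), 2 of 7 in astrocytes (28.5%), 0 of 5 in mature oligodendrocytes (36.5%), 3 of 6 in inhibitory neurons (35.7%) and 2 of 3 in newly formed oligodendrocytes (31.6%), and over 2-fold for 0 genes in each. The part of any of these in the difference was not tested, and the calls between ages are given with and without this library.

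P60 saline and P21 libraries were compared to ask how the genes change across adolescence, by edgeR's quasi-likelihood test on summed counts per cell type, where a call needed a Benjamini-Hochberg adjusted p below 0.05 over all genes and a change above 1.5-fold. Changes are given as log2 of P60 saline over P21. In endothelial cells 12 of 35 genes were called, and all 12 were higher at P60. Of all 10418 genes 12.7% were called in either direction and 5.31% higher at P60. The median change of the 35 was 0.52 against 0.01 for all genes, 29 of 35 being above 0. For 15 of 35 the saline and P21 libraries did not overlap, against 21.1% of all genes. With P21 libraries 2 and 3 summed into 1, since the 3 may share mice, 8 of 36 endothelial genes were called, all higher at P60. The share of all genes called was not computed for this fit. The calls of Gbp2, Ifit2, Parp9 and Samhd1 were lost, with 1 P21 library fewer in the fit. Without P21 library 1, 21 of 35 were called, all higher at P60 and including the same 12, against 13.3% of all genes, and the median change was 0.79. Age could not be told apart from the sequencing of P21 and P60 as separate sets, nor from the naming of P21 cells by their likeness to P60 clusters. The P60 saline mice had also gone through food restriction and training, a jugular catheter and saline self-administration, and the P21 mice carried no such label. Age could not be told apart from this procedure either.

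Markers of other cells in the endothelial class moved between ages as well. The sum of Flt1, Cldn5, Pecam1 and Ly6c1 was 12295, 7543 and 6909 CPM in P21 libraries 1, 2 and 3 and 8758–11276 CPM in P60 saline. Blood markers summed to 79329, 102677 and 102895 CPM at P21 and 41622–68219 CPM at P60. P21 library 1 stood apart in these markers too. Its endothelial markers lay above those of every saline library, whereas those of libraries 2 and 3 lay below. Fibroblast markers were at 120–165 and 40.4–86.9 CPM, microglial markers at 92.5–238 and 45.7–98.3 CPM, and markers of the mural cells that wrap vessels at 2705–3403 and 3330–4308 CPM. When endothelial cells with markers of other types were left out, 11 of 33 genes were called, all higher at P60. The calls of Gbp3, Ifit2 and Parp9 were then lost, and Psmb10 and Usp18 were added. The share of all genes called was not computed for this fit. The part of these markers in the age difference was not tested.

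Among the RNA-binding Ifit proteins, Ifit3 changed most. It measured 43.6, 18.9 and 16.6 CPM in P21 libraries 1, 2 and 3, and 101, 141.6 and 174 CPM as the lowest, median and highest of 6 P60 saline libraries. No library overlapped, and the gene rose by 2.16 ± 0.32 (log2 ± SE, adjusted p = 0.00167), or by 2.77 without P21 library 1. Ifit2 rose from 11.2, 5.46 and 4.87 CPM to 10.8, 17.0 and 24.9 CPM (1.07 ± 0.31, adjusted p = 0.0274, 1.58 without P21 library 1), with an overlap at P21 library 1 only. Ifit1 missed the threshold with all libraries (0.83 ± 0.27, adjusted p = 0.0707) and passed it without P21 library 1 (1.15, adjusted p = 0.0249).

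The antigen-processing gene Psmb8 measured 119, 83.1 and 83.9 CPM at P21 and 219.5, 269.6 and 390 CPM at P60. Every saline library was above every P21 library, including library 1, and the change was 1.45 ± 0.20 (adjusted p = 3.6e-04, 1.65 without P21 library 1). Psmb10 changed by less than the fold required (0.58 ± 0.13, adjusted p = 0.00703). Of the 5 GTPases of the list tested in these cells (Gbp2, Gbp3, Gbp7, Igtp and Irgm1), 3 were called, against 12.7% of all genes. Gbp2 stood at 57.5, 33.2 and 26.0 CPM against 68.6, 105 and 150 CPM (1.27 ± 0.29, adjusted p = 0.0149), Gbp3 at 78.4, 65.1 and 58.4 CPM against 89.1, 125 and 151 CPM (0.75 ± 0.15, adjusted p = 0.00358), and Igtp at 42.1, 29.4 and 27.6 CPM against 55.3, 78.5 and 105 CPM (1.12 ± 0.19, adjusted p = 0.00113). None of these 3 overlapped between ages, and P21 library 1 was the nearest to P60 each time. Without it their changes were 1.68, 0.89 and 1.35. Irgm1 had a larger change with a larger error and was not called (1.47 ± 0.52, adjusted p = 0.0926), nor was it without P21 library 1 (1.79, adjusted p = 0.131). Gbp7 was not called with all libraries (0.26 ± 0.16, adjusted p = 0.322) or without P21 library 1 (0.46, adjusted p = 0.0861).

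Irf1, a transcription factor induced by interferon gamma, measured 49.1, 26.9 and 26.4 CPM at P21 and 67.1, 76.9 and 80.3 CPM at P60 (0.97 ± 0.18, adjusted p = 0.00179). The entry inhibitor Ifitm3 measured 1451, 1067 and 1092 CPM against 1813, 2167 and 2386 CPM (0.68 ± 0.14, adjusted p = 0.00331). Ifitm2 measured 479, 453 and 426 CPM against 776, 976 and 1043 CPM (0.89 ± 0.13, adjusted p = 3.3e-04). In all 3 the ages did not overlap. The same held for Ifi27, with 294, 273 and 272 CPM against 423, 473 and 565 CPM (0.64 ± 0.11, adjusted p = 0.00139), and for Samhd1, a nucleotide hydrolase that starves retroviruses, with 65.1, 55.8 and 51.5 CPM against 69.1, 103 and 148 CPM (0.69 ± 0.19, adjusted p = 0.0205). Parp9, an ADP-ribosyltransferase whose exons overlap those of Dtx3l on the other strand, also lay apart, at 21.8, 20.2 and 17.4 CPM against 27.6, 33.8 and 44.4 CPM (0.66 ± 0.18, adjusted p = 0.0217). Without P21 library 1 the changes of Irf1, Ifitm3, Ifitm2, Ifi27, Samhd1 and Parp9 were 1.35, 0.84, 0.94, 0.68, 0.79 and 0.75. Leaving out P21 library 2 or 3 ended the calls of Gbp2, Ifit2, Parp9 and Samhd1. With only the 15 day saline libraries, the calls of Gbp2, Ifi27, Ifit2, Ifitm3, Parp9 and Samhd1 were lost. Without saline replicate 1 at 48 h Ifit2 and Samhd1 were lost, and without saline replicate 2 Ifi27 was lost. Each of these fits held fewer libraries.

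Isg15 was among the genes whose endothelial call depended on P21 library 1. With that library its change was 0.77 ± 0.82 (adjusted p = 0.597), since 441 CPM lay above every saline library (274, 317 and 369 CPM as lowest, median and highest). Without it the change was 3.19 (adjusted p = 1.3e-08). Irf7 went from 0.52 (adjusted p = 0.228) to 1.08 (adjusted p = 1.8e-04), Bst2 from 0.39 (adjusted p = 0.474) to 0.98 (adjusted p = 0.00345) and Oas1a from 1.00 (adjusted p = 0.160) to 2.20 (adjusted p = 1.3e-04). Oasl2 (0.84), Parp14 (0.83), Psmb10 (0.78) and Ly6e (0.64) were the remaining genes called only without it, along with Ifit1. Usp18 (0.36, adjusted p = 0.210) and Rsad2 (-0.01, adjusted p = 0.994, and 0.51 without the library) were called neither way. The lowest change of the list in endothelial cells was that of Trim25, the ubiquitin ligase that activates RIG-I (-0.57, adjusted p = 0.0467). It was under the fold required, and it was -0.37 (adjusted p = 0.227) without P21 library 1.

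**Figure D3:**
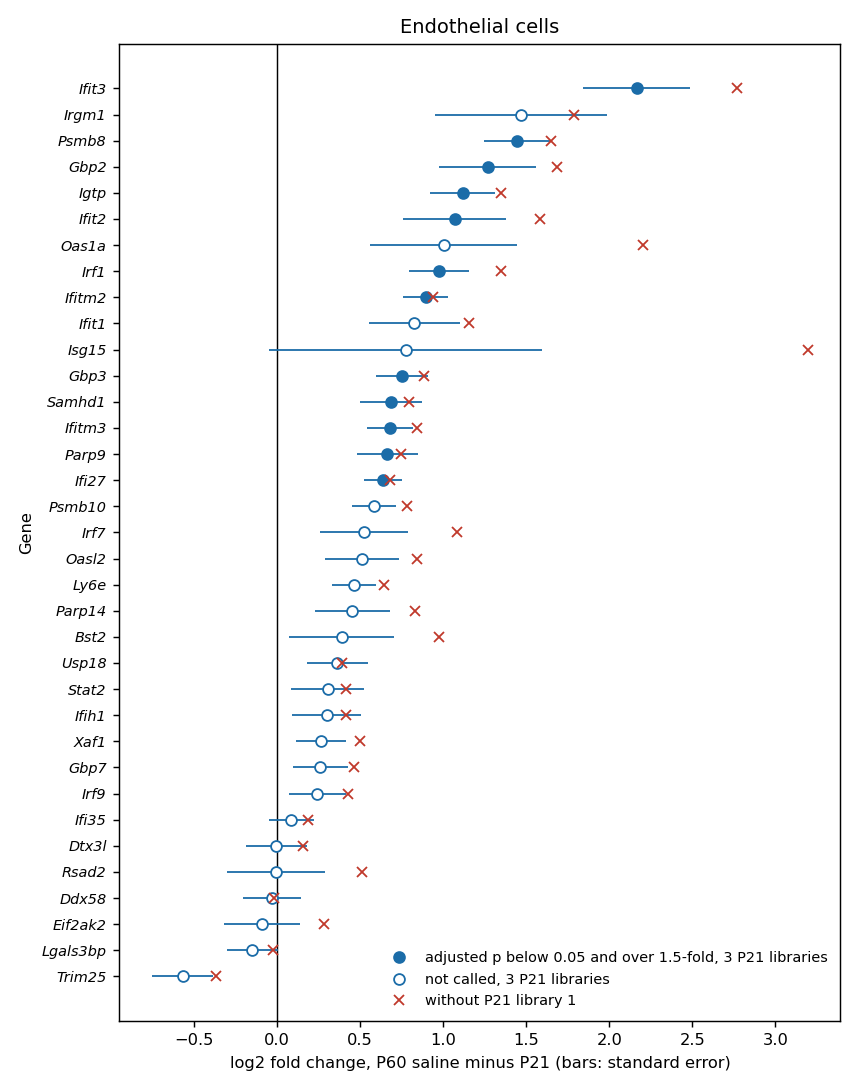
Change of each of 35 genes in endothelial cells, as log2 of P60 saline over P21 with its standard error (filled points, called; open points, not called), and the change without P21 library 1 (crosses). Ifit3 is the largest at 2.16, 29 of 35 points lie above 0, and Isg15 moves from 0.77 to 3.19 when P21 library 1 is left out.

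Excitatory neurons held most of these genes at a few CPM, Ly6e, Psmb10 and Ifi27 apart. Of 24 tested, 6 were called, against 19.3% of all genes, and without P21 library 1 there were 10 of 24, against 21.1%. Bst2 measured 5.20, 1.17 and 2.18 CPM at P21 and 6.65, 7.08 and 7.61 CPM at P60 (1.26 ± 0.32, adjusted p = 0.00914). Its call was lost with only the 15 day saline libraries (adjusted p = 0.169). Ifit3 measured 1.75, 1.79 and 1.16 CPM against 3.08, 4.06 and 6.71 CPM (1.47 ± 0.24, adjusted p = 4.5e-04), and Ifit2 1.19, 1.17 and 1.23 CPM against 1.57, 2.54 and 3.19 CPM (1.11 ± 0.24, adjusted p = 0.00311). In each the ages did not overlap. The share of all genes without overlap was computed for endothelial cells only. Igtp rose by 1.40 ± 0.25 (adjusted p = 9.5e-04) and Irgm1 by 1.35 ± 0.32 (adjusted p = 0.00535). Without P21 library 1 the changes of Bst2, Ifit3, Ifit2, Igtp and Irgm1 were 2.12, 1.57, 1.11, 1.69 and 1.13. Irf1 (0.71), Xaf1 (0.81) and Isg15 (1.35, against -0.76 and not called with all libraries) were then also called higher at P60, and Irf9 (-0.66) was called lower. Markers of other types in the same class summed to 34.0–77.5 CPM at P21 and 60.9–133 CPM in P60 saline for astrocytes and to 31.9–87.7 and 19.7–38.2 CPM for microglia. When cells with markers of other types were left out, the changes of Bst2, Ifit3, Ifit2, Igtp and Irgm1 lay between 1.05 (Ifit2) and 1.82 (Ifit3), and all 5 were called. In the same class the mitochondrial share of UMIs was 3.38–3.85% at P21 and 2.33–2.76% in P60 saline. Median depths were 7345–11457 and 11898–14834 UMIs. Blood markers were at 788–1289 and 87.3–411 CPM, and oligodendrocyte markers at 10.4–41.3 and 1.21–9.93 CPM. The part of these or of free RNA in values of a few CPM was not tested.

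Ifitm3 was lower at P60 in excitatory neurons, with 10.5, 8.80 and 5.44 CPM at P21 and 1.25, 2.57 and 4.50 CPM in P60 saline (-1.48 ± 0.32, adjusted p = 0.00383). The groups did not overlap, and the change was -1.24 without P21 library 1. Endothelial markers in the same neurons moved with it, at 32.7–76.8 CPM at P21 and 5.37–26.0 CPM in P60 saline. The call was lost when only cells with the same class in both of the authors' annotation columns were kept (-0.35, adjusted p = 0.430) and when cells with markers of other types were left out (-0.83, adjusted p = 0.117).

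Beyond endothelial cells, Ifi27 was called higher at P60 in inhibitory neurons and in newly formed and mature oligodendrocytes. In inhibitory neurons, where it was the 1 of 6 genes called (14% of all genes were), it measured 75.3, 59.2 and 53.9 CPM at P21 and 92.8, 149 and 186 CPM at P60 (1.22 ± 0.18, adjusted p = 2.3e-04). In newly formed oligodendrocytes, where it was the 1 of 3 called against 1.94% of all genes, it measured 118, 177 and 204 CPM against 544, 719 and 1051 CPM over 5 saline libraries (2.22 ± 0.22, adjusted p = 6.1e-06). In mature oligodendrocytes it measured 38.5, 102 and 93.2 CPM against 150, 201 and 281 CPM (1.48 ± 0.29, adjusted p = 0.00299). The ages lay apart in all 3 cell types, with changes of 1.39, 2.02 and 0.98 without P21 library 1. Astrocyte markers in the inhibitory class moved the same way, at 67.5–116 CPM at P21 and 109.9–391.7 CPM in P60 saline. The inhibitory change was 1.27 (adjusted p = 1.7e-05) when cells with markers of other types were left out. Ifi27 was not called in excitatory neurons (0.54, adjusted p = 0.00871), where the change was under the fold required, in astrocytes (0.35, adjusted p = 0.527) or in microglia (0.01, adjusted p = 0.9998).

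Xaf1 had the largest change of the list, in mature oligodendrocytes, where 2 of 5 genes were called against 17.8% of all genes. It measured 8.00, 0 and 9.32 CPM at P21, from 16, 0 and 4 UMIs, and 75.5, 101 and 120 CPM in the saline libraries (3.74 ± 0.36, adjusted p = 1.7e-06), or 4.19 without P21 library 1. Stretches of 90 to 109 bases at the end of the Xaf1 transcript were up to 96.7% identical to those of 7 other genes, among them Siglec1, Commd7 and Synrg, so its count is uncertain. Markers of mature oligodendrocytes were at 10096–12395 CPM at P21 and 8375–11057 CPM at P60, so the class kept them. Markers of newly formed oligodendrocytes (182–210 against 59.1–158 CPM) and of precursors (369–411 against 146–350 CPM) were higher at P21 in the same class. Their part in the Xaf1 difference was not tested.

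In astrocytes 0 of 7 genes were called by edgeR (1.11% of all genes were), with 3 at an unadjusted p below 0.05, and in microglia 0 of 14 (0.726% of all genes), also with 3. DESeq2 called Ifitm3 in astrocytes and no gene in microglia, and edgeR called astrocytic Ifitm3 without P21 library 1 (-1.999, adjusted p = 0.0363). In microglia 13 of 14 changes were above 0 with a median of 0.45, against 0.06 for all genes, and without P21 library 1 it was 11 of 15 with a median of 0.26, against 0.17. The 3 P21 libraries held 182 microglia in all, which limits what could be detected there. The authors' broader class column gave 10 of 13 microglial genes called, all higher at P60, against 42.4% of all genes called and 23% higher at P60, but 147 of its 329 P21 microglia carried another class in the subcluster column. Over the 7 cell types 22 of 94 tests were called, against 11.9% of all tests, and 21 of them were higher at P60, against 4.94%. DESeq2 called 26. All 22 calls were also made without P21 library 1, when there were 36 and 13.6% of all tests were called.

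**Figure D4:**
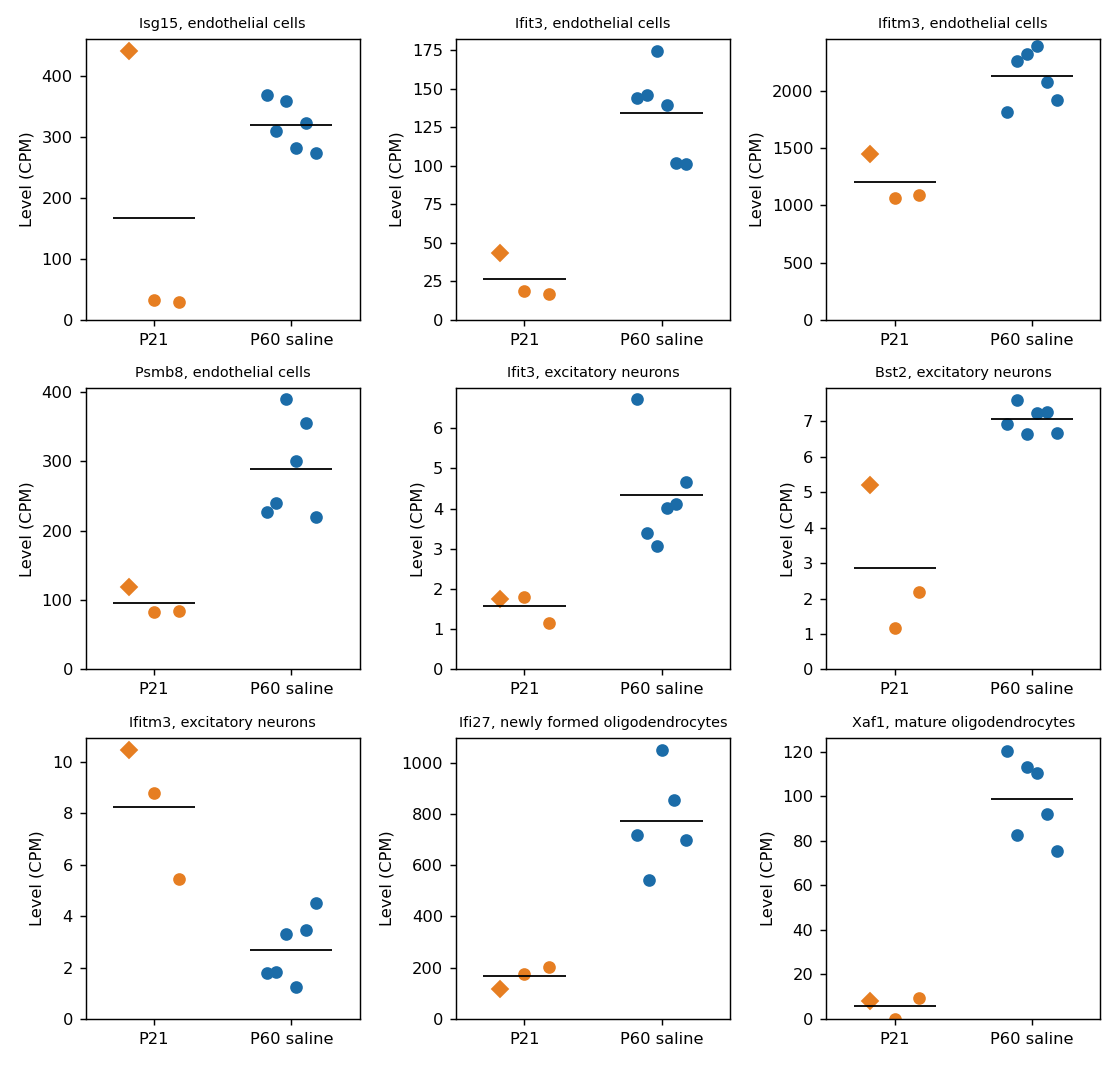
Level per library (points) in CPM for 9 pairs of gene and cell type, at P21 (orange, with P21 library 1 as a diamond) and in P60 saline (blue), with the mean as a line. The ages do not overlap in any panel but that of endothelial Isg15, where P21 library 1 at 441 CPM lies above all saline libraries.

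The other genes of the pathway were taken from a list of 77, of which 74 were counted. Interferon genes themselves were hardly detected, with 2 UMIs of Ifnb1, 25 of Ifng and 0 of Ifna1, Ifna2 and Ifna4 over all libraries. Endothelial cells carried Ifnar1 at 214–319 CPM over the 12 P60 libraries, Il10rb, a shared receptor chain for interferon lambda, at 192–354 CPM, Ifngr1 at 80.2–141 CPM, Ifnar2 at 42.5–116 CPM and Ifngr2 at 5.00–17.9 CPM. Il28ra, also on the receptor list, was at 0 CPM in endothelial cells of every library and had 7 UMIs over all libraries. Between ages 32 of 146 tests of the list were called, against 11.9% of all tests, 19 of them higher and 13 lower at P60. The list was chosen with earlier results of these data known, so the shares beside all genes are a description only.

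In endothelial cells 17 of 51 were called (12.7% of all genes), 12 of them higher at P60 (5.31%). Slfn2, a regulator of immune cell quiescence, measured 8.18, 2.94 and 3.65 CPM at P21 and 36.1–74.7 CPM in P60 saline (3.19 ± 0.30, adjusted p = 9.8e-06). Zbp1, a sensor of Z-form nucleic acid, rose by 2.21, the GTPases Gbp4, Iigp1, Gbp5, Ifi47, Gbp9 and Irgm2 by 1.94, 1.85, 1.48, 1.16, 0.90 and 0.81, and the peptide transporter subunits Tap2 and Tap1 by 1.59 and 0.80. The kinase Tbk1 (0.73) and the RNA editor Adar (0.59) were the others that rose. The 5 that fell were the receptor chains Ifngr2 (-1.22 ± 0.25, adjusted p = 0.00391) and Ifnar2 (-0.74, adjusted p = 0.0483), Isg20 (-0.98), Ifi44 (-0.81) and Tmem173, or STING (-0.74). Without P21 library 1, 13 of the 17 were called, and Slfn2, Zbp1, Iigp1 and Gbp4 changed by 3.82, 3.10, 2.96 and 2.43. The calls of Ifnar2 (-0.33, adjusted p = 0.222), Ifi44 (-0.42, adjusted p = 0.222), Tmem173 (-0.77, adjusted p = 0.0792) and Ifi47 (1.18, adjusted p = 0.0569) were lost. When endothelial cells with markers of other types were left out, 5 of the 17 were called (Slfn2, Gbp4, Gbp5, Ifi47 and Tap2), 7 were not, and the counts of 5 were too low for the test. With P21 libraries 2 and 3 summed, 11 of the 17 were called.

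In excitatory neurons 12 of 29 were called, 6 in each direction, against 19.3% of all genes. Tap2 (2.28), Herc6 (1.35), Tor3a (0.93), Pias1 (0.73), Ifngr1 (0.65) and Tbk1 (0.59) were higher at P60. Socs3 (-2.59), which shuts off cytokine receptors, Isg20 (-2.58), Rtp4 (-1.59), Irf8 (-1.36), Ifngr2 (-1.29) and Ifnar2 (-0.86) were lower. Endothelial and microglial markers in these neurons were lower at P60 as well, with the values given above. When cells with markers of other types were left out, 10 of the 12 were called, and the counts of Isg20 and Rtp4 were too low for the test. Ifngr2 measured 45.8, 36.3 and 37.6 CPM at P21 and 11.7–19.3 CPM in P60 saline, without overlap. In inhibitory neurons 2 of 13 were called, near the 14% of all genes, where Ifngr2 fell (-1.09) and Pias1 rose (0.92). In astrocytes 1 of 14 was called, against 1.11% of all genes. Astrocytic Socs3 fell from 53.3, 213 and 140 CPM to at most 16.6 CPM (-3.43 ± 0.48, adjusted p = 0.00297). All 12 excitatory calls, both inhibitory calls and that of astrocytic Socs3 were also made without P21 library 1, when Tap2 changed by 3.54 and Socs3 by -1.74 in excitatory neurons.

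Cocaine and saline libraries of the same time point were compared to ask whether self-administration or withdrawal moved the genes. Hardly any call was made. Each time point held 2 libraries per drug, which limits what could be detected, so a gene without a call may still have changed. At maintenance 0 of 86 tests over 5 cell types were called by edgeR (0.0115% of all genes), with 5 at an unadjusted p below 0.05. At 48 h it was 0 of 105 over 8 cell types (0.00826%), with 11 below 0.05, and at 15 days 1 of 105 (0.339%), with 5. Over all time points it was 0 of 86 (0.00689%), with 5 below 0.05, and for the interaction of drug and time point 0 of 86 (0.0138%), with 11. DESeq2 called 0 in each.

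The gene called was Ifitm3 in inhibitory neurons at 15 days. It measured 3.81 and 10.9 CPM with cocaine and 37.8 and 37.96 CPM with saline, from 7, 13, 62 and 38 UMIs (-2.46 ± 0.44, adjusted p = 0.00321). The 4 saline libraries of the other time points lay between 1.05 and 10.8 CPM, at the level of the cocaine libraries. Endothelial markers in the same class were at 159–274 CPM with saline and 63.7–70.1 CPM with cocaine. The call was lost without cocaine replicate 1 (-1.77) and without saline replicate 1 (-2.44), each of which left 1 library in its group.

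Endothelial cells, where most of the genes were highest, gave no call. The smallest p values at 48 h belonged there to Bst2, at 256 and 190 CPM with cocaine and 353 and 330 CPM with saline (-0.56 ± 0.15), Psmb8, at 213 and 206 against 390 and 300 CPM (-0.66 ± 0.18), and Gbp2, at 94.5 and 61.0 against 150 and 118 CPM (-0.75 ± 0.22). All 3 had an adjusted p of 0.5679. Their changes were 0.11, -0.05 and -0.17 at maintenance and 0.07, -0.03 and 0.05 at 15 days. Endothelial Ifitm2 at 48 h was 887 and 2019 CPM with cocaine and 1043 and 1007 CPM with saline (0.58 ± 0.35, adjusted p = 0.905). It was called when the cocaine library at 887 CPM was left out (1.07). That left 1 cocaine library at 48 h, so the spread came from the other groups. Isg15 changed by 0.24 ± 0.17 at maintenance and -0.03 ± 0.17 at 48 h.

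At maintenance the smallest p values were those of Igtp in excitatory neurons, at 2.37 and 2.62 CPM with cocaine and 3.13 and 6.89 CPM with saline (-1.14 ± 0.35, adjusted p = 0.735), Ifit3 in the same cells, at 2.90 and 1.49 against 6.71 and 3.38 CPM (-1.13 ± 0.36, adjusted p = 0.735), and endothelial Rsad2, at 87.3 and 90.6 against 62.8 and 38.01 CPM (0.85 ± 0.36, adjusted p = 1). None passed the threshold. Over all time points they were Igtp (-0.61, adjusted p = 0.346) and Ifih1 (-0.71, adjusted p = 0.438) in excitatory neurons and endothelial Psmb8 (-0.24, adjusted p = 0.786), and for the interaction endothelial Bst2 (adjusted p = 0.993) with Ifit3 and Ifih1 in excitatory neurons (adjusted p = 0.773 for both). The endothelial share of cells with 2 or more core genes was 30.8% and 28.1% with cocaine and 27.1% and 29.8% with saline at maintenance, 34.8% and 19.0% against 34.5% and 28.4% at 48 h, and 24.5% and 29.2% against 27.0% and 22.2% at 15 days. The drug groups overlapped at every time point.

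**Figure D5:**
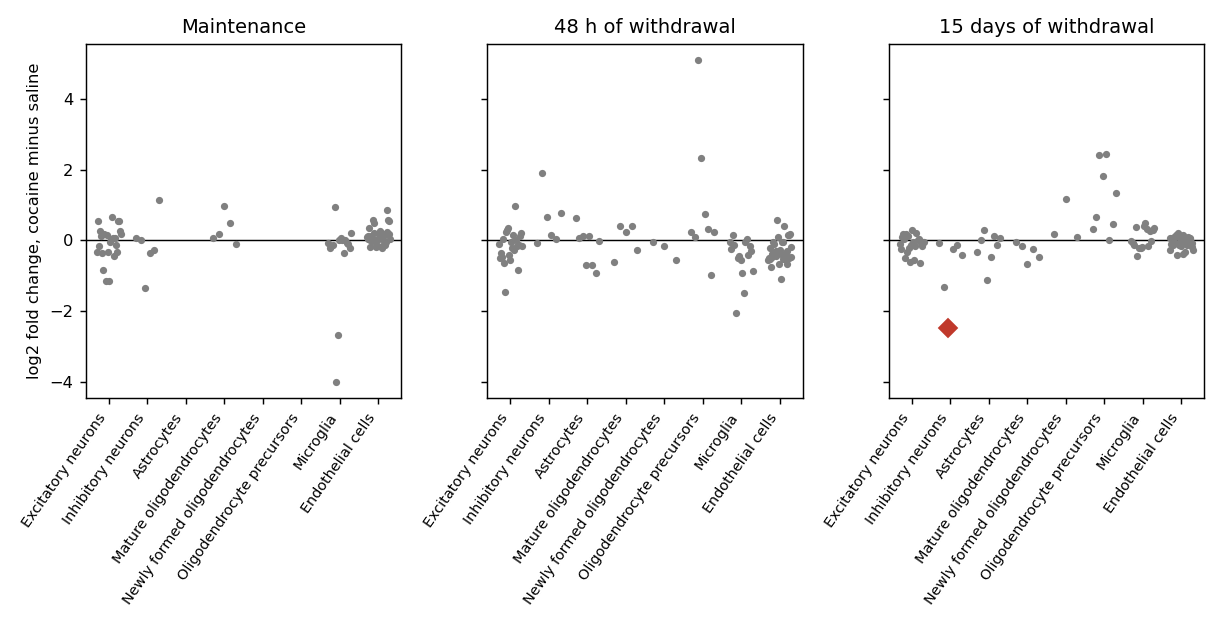
Change of each gene in each cell type tested, as log2 of cocaine over saline at maintenance, 48 h and 15 days (grey points, not called; red diamond, called). The only diamond is Ifitm3 in inhibitory neurons at 15 days, at -2.46, and the endothelial points at 15 days lie between -0.41 and 0.20.

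Of the pathway list, 2 of 160 tests were called at 15 days (0.339% of all tests), both Ifnar2 and both higher with cocaine. In excitatory neurons it measured 7.08 and 6.80 CPM with cocaine and 3.14 and 4.15 CPM with saline (0.99 ± 0.18, adjusted p = 0.0224). In endothelial cells it measured 116 and 99.4 CPM against 42.5 and 63.8 CPM (1.03 ± 0.21, adjusted p = 0.0437). The P60 libraries of the earlier time points were below both, between 53.4 and 79.2 CPM in endothelial cells and between 3.11 and 4.06 CPM in excitatory neurons. Both calls were lost without cocaine replicate 1, cocaine replicate 2 or saline replicate 1 at 15 days, each of which left 1 library in its group. The changes were then 0.98, 1.01 and 0.79 in excitatory neurons and 0.85, 1.16 and 0.70 in endothelial cells. Without saline replicate 2 they were 1.19 and 1.41. The endothelial call was also lost without saline replicate 1 at 48 h or either saline replicate at maintenance, with a change of 1.03 each time. These fits kept all 15 day libraries. It was lost too when cells with markers of other types were left out (1.35, adjusted p = 0.0594 by edgeR). The excitatory call held in these fits. An edgeR fit of the 4 libraries of that time point called neither (adjusted p = 0.0801 and 0.288). DESeq2 did not call the endothelial change (adjusted p = 0.111). Ifnar2 shares exons on the same strand with Il10rb, and the counting could have divided their reads.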

How the data were processed

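The authors aligned the reads with Cell Ranger to mm9 and deposited unnormalised UMI counts per gene and cell, with their cell classes and subclusters, and the counts were used as deposited. Retained cells were summed per library and cell type (at least 10 cells per library, at least 2 libraries per group). Before testing, 13 mitochondrial genes and 140 genes of ribosomal proteins were removed, which took 8.82–11.1% of UMIs per library. Retained cells held 8375172–42892922 UMIs per library, with a median of 3426–11334.5 per cell, and library pairs shared at most 27 barcodes. Doublets were not called again.

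Counts were tested with edgeR 4.0.16 (R 4.3.3; TMM, filterByExpr, robust quasi-likelihood fit), all cell types separately, with Benjamini-Hochberg adjustment over all genes. P21 was fitted with the 6 P60 saline libraries, and cocaine with all 12 P60 libraries in 6 groups. Alternatives were DESeq2 1.42.0, its size factors, no filter, other cell classes and leaving out each library. The test was tried on simulated data. Shares of cells used cells thinned to 1500 UMIs. Intervals of shares were not computed, since shares are given per library. Similar transcript ends were searched with blastn 2.17.0. Libraries pooled mice, so p-values measure the spread between these libraries.

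The genes and lists were chosen with earlier results of these data known. Named with values are genes called in a comparison, the 3 highest per cell type, the core genes (Ifit1, Ifit2, Ifit3, Isg15, Irf7, Usp18, Oasl2 and Rsad2), pathway genes called and receptors, and, where none was called, the 3 smallest p values. Psmb10, Irgm1, Trim25 and others given beside them were chosen after their values were seen.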

Additional observations from a re-analysis of the deposited data

Results flagged for a closer look

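Ifitm3 moved in opposite directions between ages in a pair of cell types. Its log2 change of P60 saline over P21 was -1.48 in excitatory neurons, where every saline library lay below every P21 library, and 0.68 in endothelial cells, where every saline library lay above. The difference between the cell types was not tested. The excitatory change was not called when cells had to carry the same class in both annotation columns (-0.35, adjusted p = 0.430 by edgeR). In 23 groups of 5 or 6 saline libraries behind the called or followed genes, 0 held a library far from the others by Dixon's criterion.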

How the results depend on the processing

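Of 784 values compared with other settings, 750 were labelled the same, 29 weaker, 5 stronger and 0 reversed. A value labelled the same kept its side of the threshold and, except for the interaction, its direction. Direction was not compared for the interaction, where endothelial Bst2 ran from -0.87 to 0.65 over the settings. Of 22 calls between ages, 13 held under every setting that gave a value. With only the 15 day saline libraries 22 were called, of which 15 were shared with the main fit. The number of calls between ages was 42 with the broad class column, 34 without a filter on low counts and 19 to 36 when libraries were left out in turn, the highest without P21 library 1. With cocaine at 48 h it was 3 without the filter and 0 to 1 with libraries left out, the call being Ifitm2 without cocaine replicate 1. At 15 days it was 0 by DESeq2, which gave Ifitm3 no adjusted p, and 0 to 1 with libraries left out. Over all time points it was 2 without the filter and 0 to 0 with libraries left out, at maintenance 0 to 0, and for the interaction 0 to 1. Between ages it was 19 with P21 libraries 2 and 3 summed. The pathway list had 20 calls between ages with cells of other-type markers left out, against 32, and 22 to 35 with libraries left out. Of the 42 calls with the broad class column, 10 were microglial, in a class where 42.4% of all genes were called. Except without P21 library 1, no share of all tests is given for these settings. Their counts therefore do not set the list against other genes. The median endothelial share of cells with 2 or more core genes, 28.2%, was 66.3% without thinning, 60.9% for at least 1 core gene and 11.3% for at least 3. The 30 genes highest in endothelial cells were 30 under each setting run. Keeping only cells with the same class in both columns, an alternative chosen after seeing the data, gave 25 calls between ages. The cause of these changes was not tested. No paired analysis was possible because the labels give the libraries running numbers that pair no libraries across groups.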
